A study of Mus musculus with 9 samples.

Results

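The mammalian SWI/SNF (BAF) chromatin remodeling complex is assembled from subunits that often come in alternative, paralogous forms, and the 10 mouse genes examined here encode such forms. They were the ATPase gene *Smarca2* (BRM), the ARID subunit genes *Arid1a* and *Arid1b*, the double PHD finger genes *Dpf1*, *Dpf2* and *Dpf3*, the actin-like genes *Actl6a* and *Actl6b*, and *Ss18* and *Ss18l1*. The list was given by name, and all 10 were found among the 21938 protein-coding genes of the GENCODE M21 annotation. *Smarca4* (BRG1) was added as the counterpart of *Smarca2*, and it is also counted among the remaining SWI/SNF subunit genes. Chromatin immunocleavage sequencing (ChIC-Seq), in which micrococcal nuclease tethered through protein A to an antibody cuts the chromatin around the target of that antibody, had been performed with antibodies to PBRM1 (BAF180) and to BRG1. The cells were WT primary oviductal smooth muscle cells, taken on day 2 of pregnancy from mice aged 8 to 12 weeks and plated for some hours before fixation. Each antibody had 3 replicate libraries and a list called on the 3 pooled, and all groups shared this genotype, tissue and day. The 3 control IgG samples of the series were not analysed here, so no value below is set against an IgG background. The labels do not say that replicates came from separate animals, and p-values therefore measure only the spread between these libraries.

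In a BAF complex 1 ATPase, either BRG1 or BRM, moves nucleosomes with energy from ATP hydrolysis. Each of the other families examined here fills its place with 1 member. ARID1A and ARID1B belong to canonical BAF and are not found in PBAF, the form that carries PBRM1. DPF2 is widely expressed, whereas DPF1, ACTL6B and SS18L1 (CREST) are known from the complex of postmitotic neurons. There they take the places of the forms used in dividing cells. DPF3 is known from heart and skeletal muscle and also from neurons, among other tissues. A peak on one of these genes is a place where an antibody released fragments. It is not a measure of the expression of that gene or of the subunit it encodes.

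A promoter peak was a peak whose summit lay within 2 kb of an annotated start of the gene, and its height was given in FPM, the pileup (fragments covering the summit) per 1000000 fragments of that library. A library without such a peak had no peak listed, which is not a measured level of 0. The libraries held 14284532 to 23992352 fragments, the PBRM1 libraries 1.37 times as many on average as the BRG1 libraries, and 31970 to 39467 peaks. The lowest pileup in any list was 6 to 8 fragments, or 0.333 to 0.420 FPM, below which no peak was listed. Among marker genes, 4 of 8 smooth muscle genes (*Acta2*, *Tagln*, *Smtn* and *Mylk*) had a promoter peak in all 6 lists, against 41.4% of all protein-coding genes. *Myocd* and *Des* had one in 4 lists, *Myh11* in 1 and *Cnn1* in none. Of the epithelial genes 0 of 7, and of the neuronal genes 0 of 7, had one in all 6 lists. No epithelial gene was in more than 3 lists, and 4 of the 7 were in none. Among the neuronal genes *Map2* was in 5 lists, and *Tubb3* and *Syt1* were in 4.

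Of the 10 genes, 6 had a promoter peak in all 6 lists: *Smarca2*, *Arid1a*, *Dpf2*, *Dpf3*, *Actl6a* and *Ss18*. The other 4 were *Arid1b*, *Dpf1* and *Ss18l1* with 4 lists each and *Actl6b* with 2, and no gene was without a promoter peak. Over all protein-coding genes 41.4% had a promoter peak in all 6 lists and 34.9% in none. In the 3 families with a single pair, the form in all 6 lists was *Arid1a*, *Actl6a* and *Ss18*, and the form with fewer lists was *Arid1b*, *Actl6b* and *Ss18l1*. In the DPF family *Dpf2* and *Dpf3* were in all 6 lists, and *Dpf1* was in 1 PBRM1 list and 3 BRG1 lists.

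**Figure D1:**
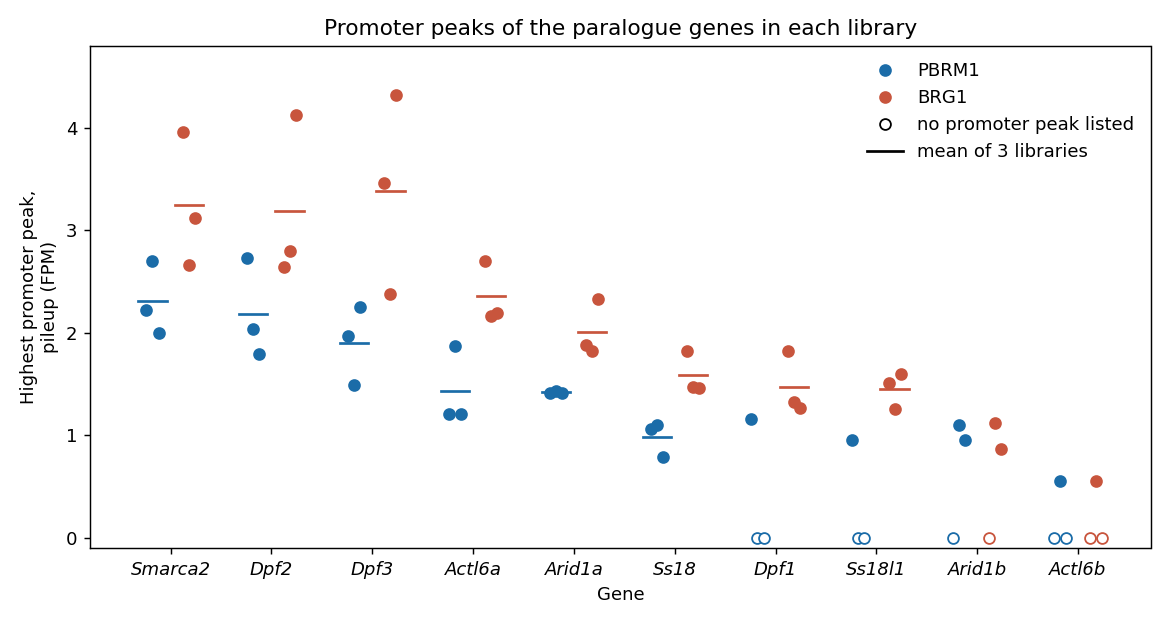
Highest promoter pileup in FPM (y axis) of each gene (x axis, ordered by the mean over 6 libraries) in each PBRM1 (blue) and BRG1 (red) library. Open circles at the base are libraries with no promoter peak listed, and short lines are means of 3 libraries. *Smarca2*, *Dpf2* and *Dpf3* reach means of 2.65 to 2.78 FPM over the 6 libraries, and *Actl6b* has a peak in 1 library of each antibody only.

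*Smarca2*, the gene of the second SWI/SNF ATPase (chr19:26605050-26778322, plus strand, GRCm38), carried the highest mean promoter pileup of the 10. Its PBRM1 values were 2.22, 2.70 and 2.00 FPM in replicates 1, 2 and 3, and its BRG1 values were 3.96, 2.66 and 3.13. The lowest BRG1 library lay just under the highest PBRM1 library, so the groups overlapped. The summits of these peaks lay 6 to 77 bp upstream of the first annotated start. *Smarca2* has 42 annotated start positions, and another peak was present in all 6 lists at an internal start 143.2 kb downstream, in a UTR exon (chr19:26747823-26748576). There the pileup was 0.71, 1.05 and 0.96 FPM with PBRM1 and 1.70, 1.19 and 1.20 with BRG1. Every BRG1 value at the internal start was above every PBRM1 value, with a log2 difference of 0.59 ± 0.24 (SE, n = 3 against 3; exact permutation p = 0.1, two-sided, the smallest this design allows). The same held at 70.6% of the 8383 regions in all 6 lists with a start within 2 kb.

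*Dpf2* and *Dpf3* encode double PHD finger subunits that read modified histone tails. At *Dpf2* (chr19:5896516-5913010, minus strand) PBRM1 gave 2.73, 2.04 and 1.79 FPM and BRG1 2.64, 2.80 and 4.12. The groups overlapped, because PBRM1 replicate 1 lay above BRG1 replicate 1. The *Dpf2* summits were 8 to 27 bp from an annotated start, and the start of the noncoding gene *Gm42067* lay within 2 kb of the same peak, so the signal cannot be assigned to one of these genes. At *Dpf3* (chr12:83213745-83487716, minus strand) PBRM1 gave 1.97, 1.49 and 2.25 FPM and BRG1 3.46, 2.38 and 4.32. All BRG1 values of *Dpf3* were above all PBRM1 values, and every summit lay 83 to 198 bp upstream of the first start.

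*Actl6a* encodes the actin-like subunit of complexes in dividing cells. Its promoter (gene at chr3:32706298-32726973, plus strand) had PBRM1 values of 1.21, 1.88 and 1.21 FPM and BRG1 values of 2.70, 2.17 and 2.19, and the groups did not overlap. The 6 *Actl6a* peaks were broad, from 693 to 1082 bp long, and lay over a cluster of starts about 2.4 kb downstream of the first annotated one. Its counterpart *Actl6b* (chr5:137553517-137569582, plus strand), a subunit of neuronal complexes, had a promoter peak in PBRM1 replicate 2 at 0.55 FPM (10 fragments) and in BRG1 replicate 2 at 0.56 FPM (8 fragments), and none in the other 4 lists. Both of these pileups were close to the lowest that their lists held.

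*Arid1a* and *Arid1b* encode the alternative large DNA-binding subunits of canonical BAF. The highest promoter peak of *Arid1a* (chr4:133679008-133756769, minus strand) was 1.41, 1.43 and 1.42 FPM in the PBRM1 libraries and 1.89, 1.82 and 2.33 in the BRG1 libraries, with no overlap. These values came from different sites. The peak at the first start was listed in 5 libraries, with BRG1 replicate 2 the exception, and a peak 2.3 kb into the gene was listed in 4, namely PBRM1 replicate 3 and all BRG1 libraries. No single *Arid1a* promoter site was therefore in all 6 lists. *Arid1b* (chr17:4994332-5347656, plus strand) had a promoter peak at 1.10 and 0.96 FPM in PBRM1 replicates 2 and 3, at 1.12 and 0.86 in BRG1 replicates 2 and 3, and none in replicate 1 of either antibody. The *Arid1b* summits lay 569 to 1031 bp downstream of an internal start, none of them at the first start.

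*Ss18* and *Ss18l1* encode related coactivator subunits. At *Ss18* (chr18:14624198-14682914, minus strand) PBRM1 gave 1.06, 1.10 and 0.79 FPM and BRG1 1.82, 1.47 and 1.46, without overlap. These means were the lowest of the 6 genes in all lists, and stood at the 19.9th percentile for PBRM1 and the 27.8th for BRG1 among the 9092 promoters with a peak in all 6 lists. *Ss18l1* (chr2:180042509-180070201, plus strand) had a peak in PBRM1 replicate 1 at 0.96 FPM and in all BRG1 libraries at 1.51, 1.26 and 1.60. Its only annotated start lies within 2 kb of that of *Psma7*, a proteasome subunit gene, and the median summit fell in a coding exon of *Psma7*, so the peak cannot be assigned to either gene. *Dpf1* (chr7:29303951-29318243, plus strand) had the same support, with 1.16 FPM in PBRM1 replicate 1 and 1.82, 1.33 and 1.26 in the BRG1 libraries. The *Dpf1* peaks were at internal starts 3.8 and 5.4 kb into the gene, and no library list had a peak at its first start.

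In the order of mean promoter pileup over the 6 libraries, with no peak taken as 0, *Smarca2* (2.78 FPM) was followed by *Dpf2* (2.69), *Dpf3* (2.65), *Actl6a* (1.89), *Arid1a* (1.72), *Ss18* (1.29), *Dpf1* (0.93), *Ss18l1* (0.89), *Arid1b* (0.67) and *Actl6b* (0.19). *Smarca2* and *Dpf2*, *Dpf2* and *Dpf3*, and *Actl6a* and *Arid1a* each split the libraries evenly, 3 against 3, so these neighbors do not differ beyond their spread. *Arid1a* was above *Ss18* in 6 of 6 libraries, and *Dpf3* was above *Actl6a* in 5 of 6. *Dpf1*, *Ss18l1* and *Arid1b* could not be ordered, since each was without a peak in 2 libraries.

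Paralogues were then compared within each library, where depth and antibody are the same for both genes of a pair. *Arid1a* was above *Arid1b* in 6 of 6 libraries by 1.04 ± 0.63 FPM (SD, n = 6), *Actl6a* above *Actl6b* in 6 of 6 by 1.71 ± 0.61, *Dpf2* above *Dpf1* in 6 of 6 by 1.76 ± 0.68 and *Dpf3* above *Dpf1* in 6 of 6 by 1.72 ± 0.83. For each of these 4 pairs the exact sign-flip test, two-sided, gave p = 0.031, the smallest that 6 libraries allow, and 0.0547 after Benjamini-Hochberg adjustment over the 7 pairs, so none passed an adjusted threshold of 0.05. In all 4 pairs the second gene had no peak in 2 or more libraries. There no peak was taken as 0, so any peak of the first gene made it the higher. For *Arid1a* and *Arid1b* these libraries were replicate 1 of both antibodies, with differences of 1.41 and 1.89 FPM. In the libraries where both had a peak the differences were 0.33 to 1.46. The mean difference of this pair was 2.36 FPM with summed promoter peaks, and in fold enrichment its adjusted p was 0.131.

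*Ss18* was above *Ss18l1* by 0.40 ± 0.46 FPM and in 5 of 6 libraries (exact sign-flip p = 0.09375, adjusted p = 0.131). The mean difference of this pair was 0.67 in the PBRM1 libraries and 0.13 in the BRG1 libraries, where BRG1 replicate 3 had *Ss18l1* higher by 0.13. *Dpf2* and *Dpf3* differed by 0.04 ± 0.63 FPM, each being higher in 3 libraries (exact sign-flip p = 0.906). The difference *Smarca4* minus *Smarca2* was -0.44 ± 0.73 FPM, with *Smarca2* higher in 5 of 6 libraries (exact sign-flip p = 0.219, adjusted p = 0.255), with BRG1 replicate 2 the exception. This difference depended on how the peaks were read: it was -2.38 FPM with all promoter peaks of each gene summed (exact sign-flip test, adjusted p = 0.0547) and -0.049 in fold enrichment (adjusted p = 0.969). *Smarca2* has 42 annotated starts against 3 for *Smarca4*. *Smarca4* itself (chr9:21616169-21704230, plus strand) had promoter values of 1.92, 1.21 and 1.50 FPM with PBRM1 and 3.27, 3.43 and 2.73 with BRG1.

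**Figure D2:**
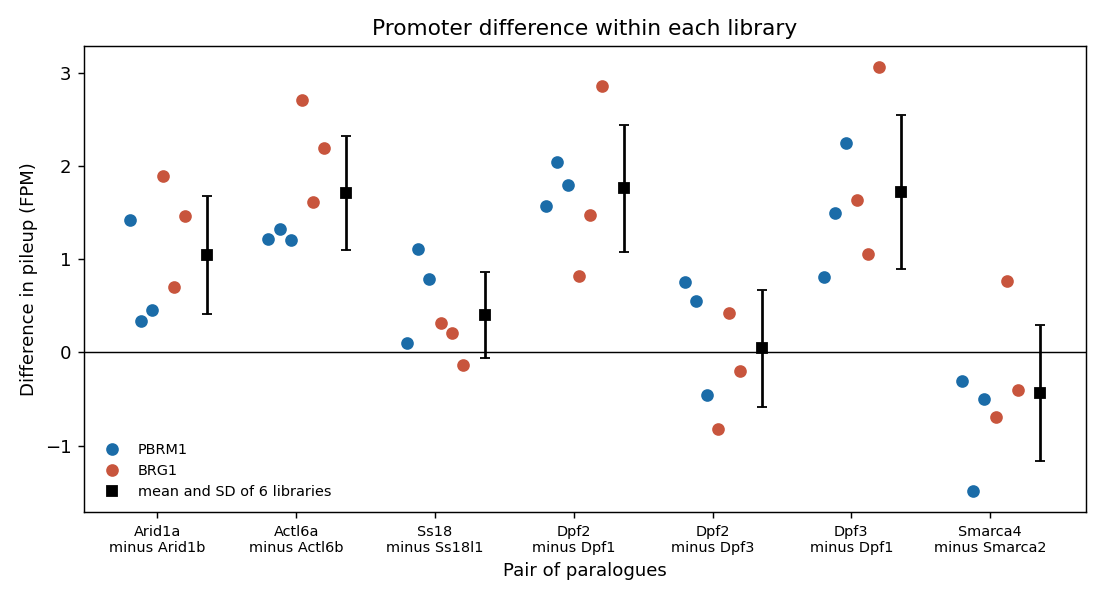
Difference in promoter pileup in FPM (y axis) between the genes of each pair (x axis), taken within each PBRM1 (blue) and BRG1 (red) library with no peak as 0. Squares and bars are the mean and SD of 6 libraries. All 6 points lie above 0 in 4 pairs (*Arid1a* minus *Arid1b*, *Actl6a* minus *Actl6b*, *Dpf2* minus *Dpf1*, *Dpf3* minus *Dpf1*), and the points of *Dpf2* minus *Dpf3* lie on both sides of 0.

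The balance within a pair could be compared between antibodies only where both promoters were in all 6 lists. The log2 ratio of *Dpf2* to *Dpf3* was 0.20 ± 0.46 (SD, n = 3) with PBRM1 and -0.07 ± 0.31 with BRG1, a difference of -0.27 (exact permutation p = 0.5, two-sided). The log2 ratio of *Smarca4* to *Smarca2* was -0.59 ± 0.50 with PBRM1 and -0.04 ± 0.35 with BRG1, a difference of 0.56 (exact permutation p = 0.2). Both overlapped between antibodies. With 3 libraries a group the permutation test cannot go below p = 0.1.

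Promoter sequences of *Actl6a*, *Actl6b*, *Dpf1* and *Dpf3* are printed with their CpG dinucleotides marked. Whether CpG content goes with the number of lists holding a promoter peak was not tested. The RefSeq promoter table (GRCm38.p6, 250 bases before to 50 after a start) held 9 of the 10 genes, the one not matched being *Ss18*. Over its 32841 promoters the median number of CpG dinucleotides in the 300 bases was 7, with quartiles of 3 and 20. *Actl6b* had 23 and *Actl6a* 21, while *Dpf1* had 39, *Dpf2* 20 and *Dpf3* 17. The runs below hold only the part of each promoter that lies before its annotated exon, 5′ to 3′ on the strand of the gene, with each CpG in capitals. They are *Actl6a* at chr3:32708296-32708506, *Actl6b* at chr5:137553296-137553516, *Dpf1* at chr7:29303755-29303950 and *Dpf3* at chr12:83487737-83487986.
Actl6a: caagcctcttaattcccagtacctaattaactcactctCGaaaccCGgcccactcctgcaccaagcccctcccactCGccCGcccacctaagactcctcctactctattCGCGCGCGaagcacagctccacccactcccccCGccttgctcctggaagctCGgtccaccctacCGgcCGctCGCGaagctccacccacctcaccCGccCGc
Actl6b: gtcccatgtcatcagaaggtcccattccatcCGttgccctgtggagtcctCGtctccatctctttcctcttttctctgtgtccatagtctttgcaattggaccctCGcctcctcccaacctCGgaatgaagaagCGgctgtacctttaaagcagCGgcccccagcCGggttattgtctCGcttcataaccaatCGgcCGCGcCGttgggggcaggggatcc
Dpf1: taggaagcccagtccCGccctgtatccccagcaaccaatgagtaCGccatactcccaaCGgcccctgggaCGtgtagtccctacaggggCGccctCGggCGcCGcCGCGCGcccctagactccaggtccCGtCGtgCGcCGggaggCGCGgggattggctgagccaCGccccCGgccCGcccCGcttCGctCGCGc
Dpf3: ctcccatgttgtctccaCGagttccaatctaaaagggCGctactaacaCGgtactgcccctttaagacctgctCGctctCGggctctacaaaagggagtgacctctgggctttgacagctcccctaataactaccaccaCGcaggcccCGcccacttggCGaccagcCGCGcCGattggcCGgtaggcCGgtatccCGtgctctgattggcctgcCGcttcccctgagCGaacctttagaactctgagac

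The printed stretch of *Actl6b* has 12 CpG in 221 bases and that of *Actl6a* 16 in 211. *Dpf1*, which had no peak at this start in any library list, has 24 in 196 against 16 in 250 for *Dpf3*. The stretch of *Dpf2*, not printed, has 4 in 111. Among the other members *Arid1b* had 42 CpG and *Ss18l1* 39 in their 300 bases, *Smarca2* had 29, and the 2 *Arid1a* entries had 36 and 22. The promoters with 17 to 29 CpG thus included *Smarca2*, *Dpf2* and *Dpf3*, with the highest pileups, and *Actl6b*, with the lowest. Short motifs were searched on both strands. The CCAAT box (CCAAT), present in 37.4% of all promoters, was found 3 times each in *Actl6b* and *Dpf3*, 2 times in *Dpf1* and 1 time in *Dpf2*. The GC box (GGGCGG, in 35.7% of promoters) was found in the promoters of *Smarca2*, *Arid1a*, *Arid1b*, *Dpf1*, *Dpf3*, *Actl6a*, *Actl6b* and *Ss18l1*, with *Dpf2* the exception. An AP-1 motif (TGANTCA, 7.81%) was found in *Smarca2* only, and an NRF1-type motif (CGCANGCG, 8.21%) in *Dpf2* only. These matches are a description of the letters in each window.

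BRG1 and PBRM1 values were next compared at the 6 promoters in all lists. BRG1 pileup in FPM was higher at most promoters of the genome: over the 9092 protein-coding promoters in all 6 lists the median log2 difference, BRG1 minus PBRM1, was 0.59 (1.51-fold), with quartiles of 0.43 and 0.75, and all BRG1 values lay above all PBRM1 values at 73.4%. The same was seen at 4 of the 6 genes (*Arid1a*, *Dpf3*, *Actl6a* and *Ss18*), while *Smarca2* and *Dpf2* overlapped. The log2 difference was 0.81 ± 0.31 (SE, n = 3 against 3) at *Dpf3*, 0.74 ± 0.23 at *Actl6a*, 0.69 ± 0.18 at *Ss18* and 0.49 ± 0.11 at *Arid1a*, each with exact permutation p = 0.1 (two-sided), the smallest possible. It was 0.54 ± 0.27 at *Dpf2* and 0.48 ± 0.21 at *Smarca2* (exact permutation p = 0.2 for both). The *Arid1a* values came from different promoter sites, so they do not compare the antibodies at a single site.

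Relative to the median promoter, *Dpf3* stood 0.22 above on the log2 scale, *Actl6a* 0.15 above and *Ss18* 0.10 above, while *Dpf2* stood at -0.06, *Arid1a* at -0.10 and *Smarca2* at -0.11. After each library was scaled to its median promoter, 8.01% of the 9092 promoters had all BRG1 values above and 9.95% all below, and 0 of the 6 genes did so in either direction (exact permutation p between 0.3 and 0.7). With that scaling the differences of *Smarca2*, *Arid1a* and *Dpf2* fell below 0. With the deposited fold enrichment in place of pileup 0 genes had BRG1 all above, and *Arid1a* had all PBRM1 values above all BRG1 values. With the pileup of all promoter peaks of a gene summed, *Arid1a* and *Ss18* overlapped (log2 differences 0.68 and 0.40, exact permutation p = 0.4 and 0.6) and *Dpf2* did not (0.64, exact permutation p = 0.1). *Smarca4* had a difference of 1.04 ± 0.22, at the 96.9th percentile of the 9092 promoters, and it too overlapped after scaling to the median promoter.

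**Figure D3:**
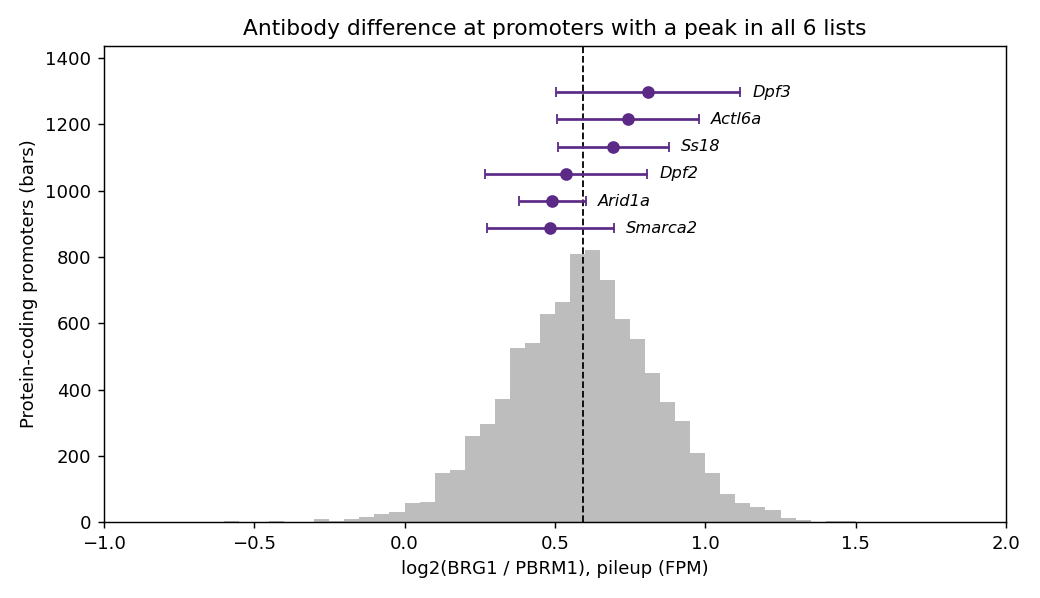
Bars count protein-coding promoters with a peak in all 6 lists (y axis) by log2 BRG1 over PBRM1 pileup in FPM (x axis), leaving out 1 promoter outside the range shown. The dashed line is their median, 0.59, and points with SE bars, at heights set only for legibility, are the 6 genes, which lie between 0.48 and 0.81, 3 on each side of the line. The *Arid1a* point joins values from different promoter sites.

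Away from promoters, the peaks in the gene bodies and 20 kb on each side were merged over the 6 lists into distal sites. The 10 genes had 57 distal sites, of which 27 were in 1 list, 17 in 2 to 5 and 13 in all 6. Genes with at least 1 distal site in all 6 lists were *Arid1a* (4 sites), *Dpf2* (3), *Arid1b* (2), *Ss18l1* (2), *Actl6a* (1) and *Ss18* (1), that is 6 of 10 against 39.5% of protein-coding genes. Of the 13 sites, 7 lay within 2 kb of a start of another gene and 6 did not. All sites in 6 lists at *Dpf2* (*Slc25a45*, *Tigd3* and *Cdc42ep2*), *Actl6a* (*Mrpl47* and *Ndufb5*) and *Ss18l1* (*Lsm14b* and *Mtg2*) were of the first kind, and only *Arid1a*, *Arid1b* and *Ss18* had sites of the second. *Smarca2*, *Dpf1*, *Dpf3* and *Actl6b* had none of either kind.

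**Figure D4:**
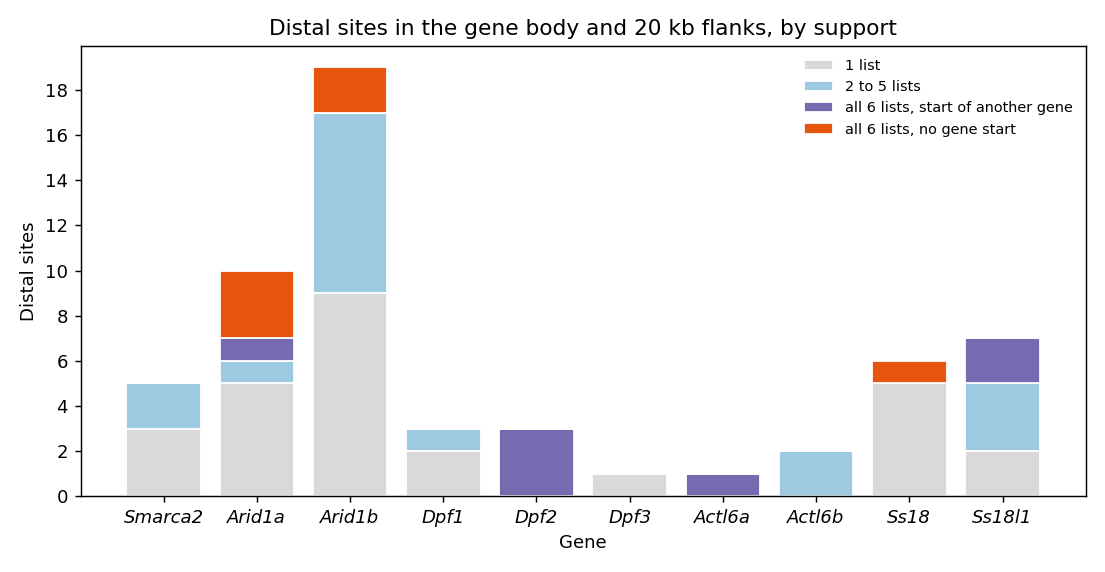
Number of distal sites (y axis) of each gene (x axis) by how many of the 6 library lists held them. Of the 13 sites in all 6 lists, the 6 with no gene start within 2 kb (orange) belong to *Arid1a*, *Arid1b* and *Ss18*, and the 7 at starts of other genes (purple) to *Arid1a*, *Dpf2*, *Actl6a* and *Ss18l1*.

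The density of distal sites, in sites per 100 kb of window, had a median of 3.28 over protein-coding genes. *Ss18l1* had 10.3 and *Ss18* 6.08, *Arid1a* 8.49 and *Arid1b* 4.83, and *Actl6b* 3.57 and *Actl6a* 1.65. *Dpf1* and *Dpf2* had 5.53 and 5.31, although 0 of the 3 *Dpf1* sites and all 3 *Dpf2* sites were in all 6 lists. *Dpf3* had 1 site, in 1 list, in a window of 314 kb (0.32 per 100 kb), although its promoter was among the highest. *Arid1b*, with a promoter peak in 4 lists, had 19 sites in its window of 393 kb. *Smarca2* had 5 sites (2.34 per 100 kb), none of them in more than 3 lists. Sites in 1 list only were 5 of 6 at *Ss18*, 5 of 10 at *Arid1a* and 9 of 19 at *Arid1b*. At *Ss18l1* they were 2 of 7, and at *Actl6a* and *Actl6b* there were none. The highest distal site near any of the genes was at the start of *Lsm14b*, 17.7 kb upstream of *Ss18l1*, where PBRM1 gave 2.48, 2.15 and 1.54 FPM and BRG1 4.03, 2.87 and 3.86. That is above the *Ss18l1* promoter in every library. The site of *Ss18* in all 6 lists lay in a coding exon 27.9 kb into the gene, with 0.66, 1.16 and 0.83 FPM for PBRM1 and 0.94, 1.54 and 1.53 for BRG1, and overlapped between antibodies (log2 difference 0.60 ± 0.33, exact permutation p = 0.2, two-sided).

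At the sites in all 6 lists, BRG1 values were all above PBRM1 values at 6 of the 7 that lay at starts of other genes, against 70.6% of the 8383 regions in all 6 lists with a start within 2 kb. They were so at 2 of the 6 with no start, against 30.9% of the 4450 regions in all 6 lists with no start within 2 kb. At the 7 sites the log2 difference ranged from 0.32, at the start of *Cdc42ep2* near *Dpf2*, to 0.82, at the *Mrpl47* and *Ndufb5* starts near *Actl6a*, and the *Cdc42ep2* site was the one that overlapped. The median log2 difference of the 4450 regions was 0.27, against 0.59 at promoters. The 2 start-free sites were an intron of *Arid1a* 68.2 kb into the gene (chr4:133688270-133688894), with a log2 difference of 0.24 ± 0.06, and an intron of *Arid1b*. At the *Arid1a* site the values were 1.36, 1.21 and 1.29 FPM with PBRM1 and 1.51, 1.47 and 1.60 with BRG1 (exact permutation p = 0.1, two-sided). The other start-free *Arid1a* sites, 96.6 kb (chr4:133659453-133661106, past the end of the gene) and 26.8 kb (chr4:133729625-133730299, intronic) downstream of its first start, had differences of 0.38 and 0.36 and overlapped (exact permutation p = 0.3 for both).

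*Arid1b* had a pair of intronic sites in all 6 lists, which differed in the balance of the antibodies. At the site 63.9 kb into the gene (chr17:5058115-5058766) PBRM1 gave 1.31, 1.54 and 1.04 FPM and BRG1 1.01, 1.54 and 1.06, a log2 difference of -0.12 ± 0.25 (exact permutation p = 0.7, two-sided). At the site 195.5 kb into the gene (chr17:5189528-5190567) PBRM1 gave 1.41, 1.16 and 1.21 FPM and BRG1 2.33, 2.52 and 2.06, a difference of 0.87 ± 0.12 (exact permutation p = 0.1, the smallest possible). All BRG1 values at this second site were above all PBRM1 values, and each of the 6 values was above every *Arid1b* promoter value. The bases around the median summit of both are shown on the plus strand with CpG in capitals (chr17:5058156-5058356 and chr17:5189750-5189950). The first window has 5 CpG and the second 17. Whether CpG content goes with the balance of the antibodies was not tested, nor was the difference between these sites.
Arid1b intron at 63.9 kb: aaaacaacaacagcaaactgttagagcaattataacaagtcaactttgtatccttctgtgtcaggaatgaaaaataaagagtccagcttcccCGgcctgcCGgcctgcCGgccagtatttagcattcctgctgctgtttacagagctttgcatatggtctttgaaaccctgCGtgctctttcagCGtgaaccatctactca
Arid1b intron at 195.5 kb: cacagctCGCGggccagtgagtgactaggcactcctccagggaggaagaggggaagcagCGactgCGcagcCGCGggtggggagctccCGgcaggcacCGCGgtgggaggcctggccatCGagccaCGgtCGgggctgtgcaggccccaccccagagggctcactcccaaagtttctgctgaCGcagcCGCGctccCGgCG

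Neither window holds an AP-1, CCAAT, GC box or NRF1-type motif as spelled above, an ETS motif (CGGAAG), a CRE (TGACGTCA) or a CArG box, and nor do those of the other 4 start-free sites in all 6 lists. Of the 4450 regions, 22.7% hold AP-1 in a window of the same length. A further pair of intronic sites of *Arid1b* was listed with 1 antibody only. The site 144.6 kb into the gene (chr17:5138723-5139181) was in all PBRM1 lists, at 0.71, 1.16 and 0.88 FPM, and in no BRG1 list. The site 156.5 kb into the gene (chr17:5150735-5151116) was in all BRG1 lists, at 0.82, 0.63 and 1.06 FPM, and in no PBRM1 list. A site 8.3 kb upstream of *Ss18l1* in an intron of *Lsm14b* (chr2:180033857-180034448) was in all PBRM1 lists (0.66, 0.83 and 0.79 FPM) and no BRG1 list. Over all protein-coding genes, 1.13% of 50819 distal sites were in all PBRM1 lists and no BRG1 list, and 0.720% in all BRG1 lists and no PBRM1 list. In all, 17 of the 57 distal sites were in PBRM1 lists only (29.8%, against 27.0% of the 50819) and 16 in BRG1 lists only (28.1%, against 30.6%), shares near those of the genome. From peak lists alone, an unlisted site cannot be told apart from one just under the level at which a peak is called.

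**Figure D5:**
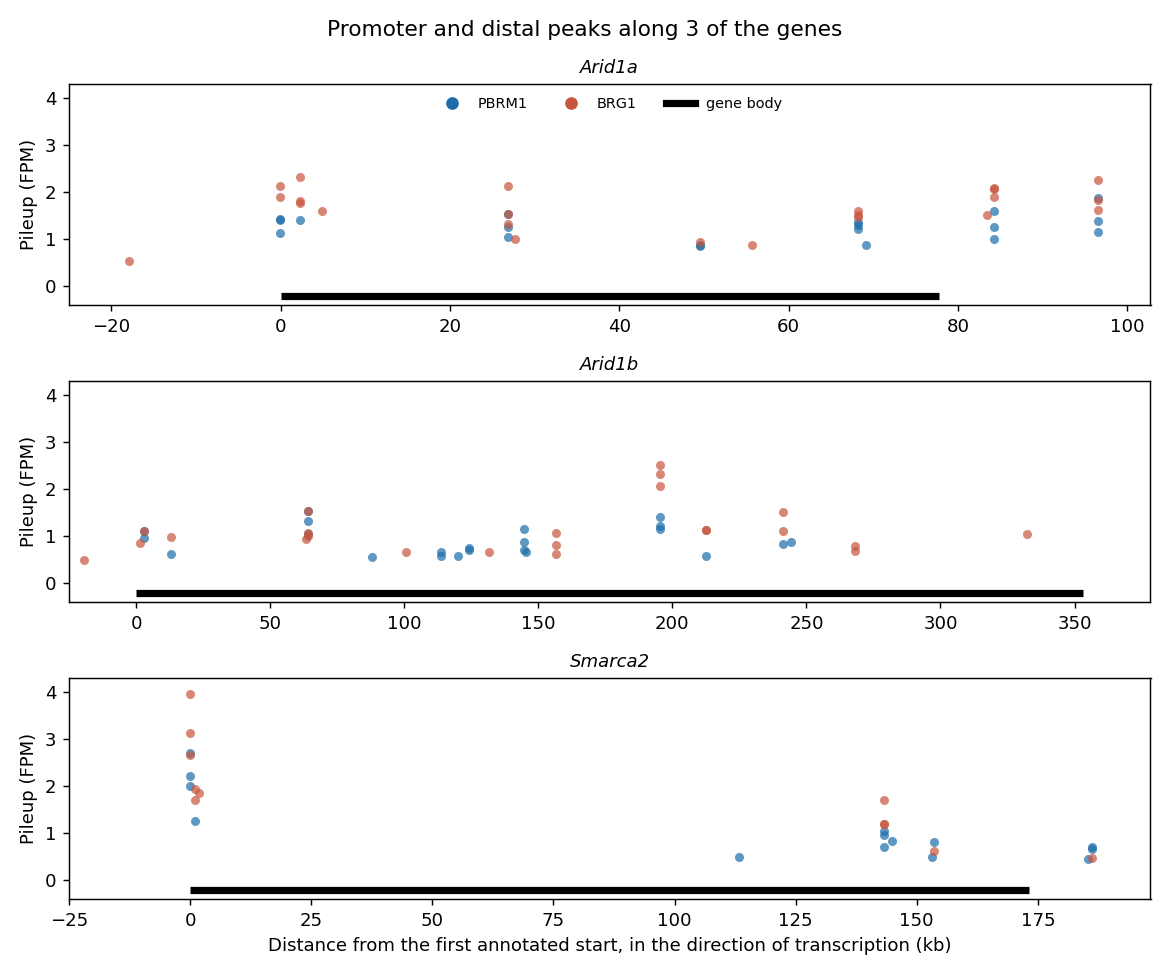
Pileup in FPM (y axes) of every promoter and distal peak of *Arid1a*, *Arid1b* and *Smarca2* in each PBRM1 (blue) and BRG1 (red) library, by distance in kb from the first annotated start (x axes), with the gene body in black. *Smarca2* is highest at its start, *Arid1b* at the intronic site at 195.5 kb, and *Arid1a* has values of similar height at its start and downstream.

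The remaining SWI/SNF subunit genes, *Smarca4* among them, were read in the same manner. Of 20 such genes 11 had a promoter peak in all 6 lists (41.4% of protein-coding genes did), 8 in some and 1, *Bicral*, in none. The genes in some lists were *Smarcd1* and *Phf10* (5 lists each), *Brd7* and *Bcl7a* (4), *Bcl11a* (3), *Bicra* and *Bcl11b* (2) and *Smarcc2* (1). Of the paralogous subunits among them, *Smarcc1* was in 6 lists and *Smarcc2* in 1, whereas *Smarcd2* and *Smarcd3* were in 6 and *Smarcd1* in 5, and *Bcl7b* and *Bcl7c* in 6 and *Bcl7a* in 4. The median log2 difference of the 11 genes, BRG1 minus PBRM1, was 0.77, against 0.62 for the 6 members and 0.59 for all promoters.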

How the data were processed

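ChIC-Seq peak lists of 3 PBRM1 and 3 BRG1 libraries were used, with 2 lists called on pooled replicates for comparison. The labels name cutadapt, Bowtie2, MACS2 and GRCm38.p5. MACS 2.2.7.1 was run by the authors, per the file headers, on fragments of read pairs in narrow mode, keeping duplicates at that step, at a q-value cutoff of 0.05, with no control file and a local background of 10 kb. The deposited pileup is unscaled signal at the summit. A fold enrichment (ratio of pileup to local background) and a −log10 q for each peak were also deposited. The paper supplied describes other cells, and its methods were not taken as those of these libraries.

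Pileup was divided by the fragments in each header and multiplied by 1000000 (FPM). Starts and gene bodies were from GENCODE M21. Library values were compared by exact permutation (3 against 3) and pairs by exact sign flips over 6 libraries, with Benjamini-Hochberg adjustment over 7 pairs. Sites were merged over lists when at least 1 bp was shared. The code was tested on simulated data. Python 3.11.15, numpy 2.4.6, pandas 2.3.3 and pysam 0.24.0 were used. Members, lists and pairs were chosen with earlier results of these data known. All 10 members are described, with values for at most 3 distal sites in all 6 lists each, not chosen by mean pileup alone. At *Arid1a* the 3 sites with no gene start were given. A site at the start of *Pigv* (mean 1.65 FPM) was left out, although the site 68.2 kb into the gene had a lower mean (1.41 FPM). The distal sites listed with 1 antibody only were chosen after their values were seen. Alternatives were another promoter distance, overlap in place of summit, -log10 q of at least 5, equal peak numbers, fold enrichment, median scaling, summed peaks, another value for no peak, a replicate block, 10 kb flanks, sites at other starts left out, and each library left out.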

Additional observations from a re-analysis of the deposited data

Results flagged for a closer look

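The lists called on pooled replicates, which the comparisons did not use, hold 8 promoter peaks of these genes that overlap no peak of any single library. All are listed without an IgG control, and pooled fragments are more numerous than in any library. *Dpf1* has such a peak at its first start with both antibodies, with a pileup of 57 fragments for PBRM1 (0.92 FPM) and 71 for BRG1 (1.57 FPM). The pooled PBRM1 list has 1 at *Arid1b*, 0.75 kb upstream of the first start, with 33 fragments, and the pooled BRG1 list has 1 at *Ss18*, 1.58 kb into the gene, with 27. At internal starts of *Smarca2* the pooled PBRM1 list has peaks of 16, 17 and 38 fragments, at 110.8, 126.4 and 143.8 kb, and the pooled BRG1 list 1 of 18 fragments at 111.9 kb.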

How the results depend on the processing

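The count of genes with a promoter peak in all lists, 6, was 4 with -log10 q of at least 5 and 7 with any overlap (adding *Dpf1*), and 6 otherwise. At -log10 q of at least 5, *Arid1b* and *Actl6b* had no promoter peak. The 4 genes with BRG1 all above PBRM1 became 0 with fold enrichment, 0 with median scaling, 2 with -log10 q of at least 5 and 3 with summed peaks (*Arid1a* and *Ss18* lost, *Dpf2* gained), and were 4 or 5 when each library was left out, with *Dpf2* added without PBRM1 replicate 1 or BRG1 replicate 1 and *Smarca2* without PBRM1 replicate 2 or BRG1 replicate 2. The log2 differences of *Smarca2* and *Arid1a* turned to -0.039 and -0.15 with fold enrichment, and those of *Smarca2*, *Arid1a* and *Dpf2* to -0.13, -0.12 and -0.079 with median scaling. The mean difference of *Dpf2* and *Dpf3* turned to -1.27 in fold enrichment, and ranged from -0.10 to 0.21 when a library was left out, below 0 at -0.10, -0.06 and -0.03 without PBRM1 replicate 1, PBRM1 replicate 2 and BRG1 replicate 2. The pairs past an adjusted p of 0.05 were 0 under every alternative run, but with a library left out the smallest sign-flip p is 0.0625, so these 6 alternatives could give no other count. With summed peaks the difference of *Smarca4* and *Smarca2* moved from -0.44 to -2.38 and that of *Arid1a* and *Arid1b* from 1.04 to 2.36. Pairs whose log2 ratio did not overlap between antibodies, 0, were 1 with fold enrichment (*Smarca4* and *Smarca2*), and 0 to 1 when a library was left out: *Smarca4* and *Smarca2* without PBRM1 replicate 1 (0.75) or BRG1 replicate 1 (0.68), and *Dpf2* and *Dpf3* without PBRM1 replicate 3 (-0.54). The 13 distal sites in all lists became 6 without starts of other genes, 6 with -log10 q of at least 5, 9 with 10 kb flanks, and 13 to 14 when a library was left out (14 without BRG1 replicate 2). Of 414 alternative values of 40 results, 9 changed sign, all given here. Peaks of under 6 to 8 fragments were below what the lists hold. The cause of these changes was not tested.

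With a replicate block, pairing libraries by number, 4 genes had BRG1 above in every pair and 0 pairs of genes a one-sided ratio. The exact permutation test within this block cannot go below p = 0.25. Same-numbered libraries did not deviate together (correlations of -0.01, 0.02 and -0.01 over 9092 promoters). These correlations gave no sign of pairing, but noise between libraries could hide a shared deviation. They therefore cannot decide whether the numbers pair the samples.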
